A study of Mus musculus with 3 samples.

Results

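Csf1r, Tyrobp, Trem2, Hcst, Syk, Spi1, Csf2ra and Csf3r, 8 of the 27998 genes in the deposited single-cell count table, were described in microglia of the mouse lumbar spinal cord. They were chosen by symbol, as the receptors, adaptors, kinase and transcription factor of colony-stimulating factor and Trem2-Tyrobp signalling, and all 8 were found. The cells came from C57BL/6 Cx3cr1-creER-yfp/+ mice, which carry a Cre recombinase that tamoxifen switches on and a yellow fluorescent protein, both driven from the Cx3cr1 locus on 1 chromosome, in naive as in injured animals. Young adult animals were either naive or had the sciatic nerve transected 24 or 48 h earlier, several animals were pooled per time point, and YFP(+) cells were sorted by flow cytometry, so any Cx3cr1-expressing cell could enter. Each time point gave 1 library with the 10x Genomics 3′ chemistry, in which a unique molecular identifier (UMI) marks each captured RNA molecule. The sorted cells stood in a medium with TGF-β2, cholesterol and IL34, and IL34 is itself a ligand of the Csf1r receptor.

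The cell barcodes ended in 1, 2 or 3, and neither the labels nor the methods tied an ending to naive, 24 h or 48 h. Values are therefore those of libraries 1, 2 and 3 of unknown time point, and no difference below can be read as an effect of injury. With 1 library per time point no test was made. Intervals are 95% intervals for counting error only (exact Poisson for levels, Clopper-Pearson for shares of cells, exact conditional binomial for ratios), and do not cover the spread between animals.

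Csf1r is the receptor tyrosine kinase for Csf1 and IL34, on which the survival of adult microglia depends. Trem2 is a lipid- and apolipoprotein-binding receptor with no signalling tail of its own. It signals through Tyrobp (DAP12), a short adaptor whose phosphorylated motif binds the kinase Syk, and Hcst (DAP10) is a related adaptor that instead binds PI3 kinase. Spi1 encodes PU.1, the ETS-family transcription factor that macrophages and microglia need in order to form. Csf2ra and Csf3r encode the receptor chains for GM-CSF and G-CSF, best known from monocytes and neutrophils.

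The libraries held 609, 3591 and 3322 cells with medians of 2218, 5952 and 5742 UMIs per cell, so library 1 stood apart in both. Each cell was therefore thinned to 2000 UMIs, which kept 408, 3569 and 3284 cells, and levels are counts per 1000000 UMIs (CPM) summed over those cells. Libraries 1 and 2 shared 5 barcodes, 1 and 3 shared 3, 2 and 3 shared 19, and 1 was in all 3. 8 microglia marker genes, led by P2ry12 in library 1 and Tmem119 in libraries 2 and 3, summed to between 12668 and 14962 CPM, and every cell held UMIs of at least 2 of them. The marker lists of monocytes, perivascular macrophages, neutrophils and NK or T cells summed to at most 14.4 CPM each. Those of B cells, neurons, astrocytes, oligodendrocytes and endothelium summed to between 0 and 149.5 CPM, the highest being the astrocyte list in library 1, nearly all Slc1a3. The share of free RNA in the droplets was not measured. Library 3 carried 30111 CPM of 21 early response genes, such as Fos and Jun, against 2982 and 3489 CPM in libraries 1 and 2. Library 2 carried 1756 CPM of 43 proliferation genes against 195 and 311 CPM in libraries 1 and 3. The part of these differences in the members' levels was not tested.

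The members fell into 4 tiers in every library. Tyrobp, Trem2 and Csf1r lay above 1700 CPM, Spi1 between 546 and 615, Csf2ra and Csf3r between 142 and 210, and Hcst and Syk between 39.7 and 68.6. These are UMIs, which count captured 3′ ends and were not divided by transcript length. Neighbours within the lower tiers did not keep 1 order. Csf3r lay above Csf2ra in libraries 1 and 3 with intervals apart, and just below it in library 2 with intervals that overlapped. Hcst and Syk had overlapping intervals in libraries 1 and 2, and Syk lay above Hcst in library 3. In the top tier the order was Tyrobp, Trem2, Csf1r in each library, with Trem2 and Csf1r overlapping in library 1.

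**Figure D1:**
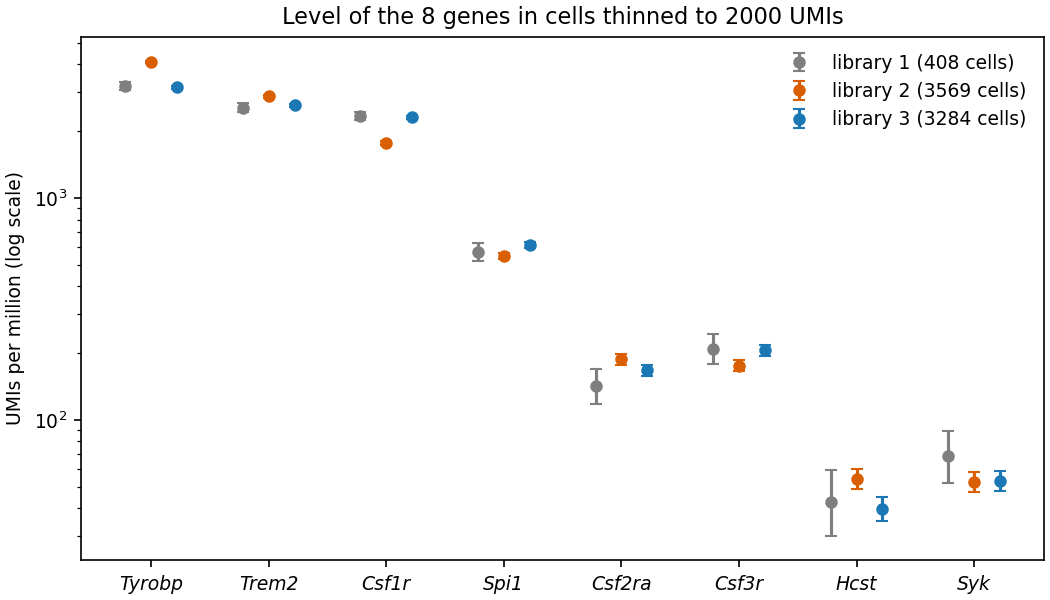
Level of each of the 8 genes (CPM, log scale) in libraries 1, 2 and 3, with exact Poisson 95% intervals for counting error, in cells thinned to 2000 UMIs. Tyrobp, Trem2 and Csf1r sit above 1700 CPM in all 3 libraries, with Tyrobp highest and Csf1r lowest in library 2.

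Tyrobp was the most abundant of the 8 in all 3 libraries. In libraries 1, 2 and 3 its level was 3195 CPM (3073 to 3320), 4118 (4071 to 4166) and 3156 (3113 to 3199), which made it the 18th, 15th and 23rd most abundant of all genes. Library 2 was thus highest, and libraries 1 and 3 had overlapping intervals. The ratio was 1.29 (1.24 to 1.34) of library 2 to library 1, 0.766 (0.753 to 0.78) of library 3 to library 2 and 0.988 (0.948 to 1.03) of library 3 to library 1. The library 1 level was 3038 CPM in cells thinned to 1000 UMIs and 3594 in the 69 cells thinned to 3000. Across the alternatives the ratio of library 3 to library 1 ranged from 0.881 to 1.05. At 2000 UMIs the median cell held 6, 8 and 6 Tyrobp UMIs. Every one of the 3569 cells of library 2 had at least 1, as did 407 of 408 cells of library 1 and 3275 of 3284 of library 3.

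Csf1r lay the other way. In libraries 1, 2 and 3 its level was 2343 CPM (2239 to 2451), 1774 (1743 to 1805) and 2313 (2277 to 2350), so that library 2 was lowest and libraries 1 and 3 again overlapped. It ranked 23rd, 56th and 38th of all genes. The ratio was 0.757 (0.722 to 0.795) of library 2 to library 1, 1.3 (1.27 to 1.34) of library 3 to library 2 and 0.987 (0.941 to 1.04) of library 3 to library 1. The median cell held 5, 3 and 4 UMIs, and 98.5%, 96.9% and 98.8% of cells had at least 1. Csf1r (ENSMUSG00000024621) is a protein-coding gene on chromosome 18 at 61100598 to 61132149, plus strand, in GENCODE M21 on GRCm38, the assembly that the submitters' notes call mm10.

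Set against Tyrobp within the same cells, Csf1r gave 73.3 (69.1 to 77.8), 43.1 (42.2 to 44) and 73.3 (71.8 to 74.9) UMIs per 100 Tyrobp UMIs in libraries 1, 2 and 3. This ratio does not depend on how the libraries were scaled. Spi1 against Tyrobp was also lowest in library 2, at 18, 13.3 and 19.5 per 100. Its own ratio of library 2 to library 1 was 0.952 (0.864 to 1.05), beside 1.29 for Tyrobp. A gene of even level also comes out low per Tyrobp in library 2, where Tyrobp was highest. Hcst against Tyrobp was 1.34, 1.32 and 1.26 per 100 with overlapping intervals.

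**Figure D2:**
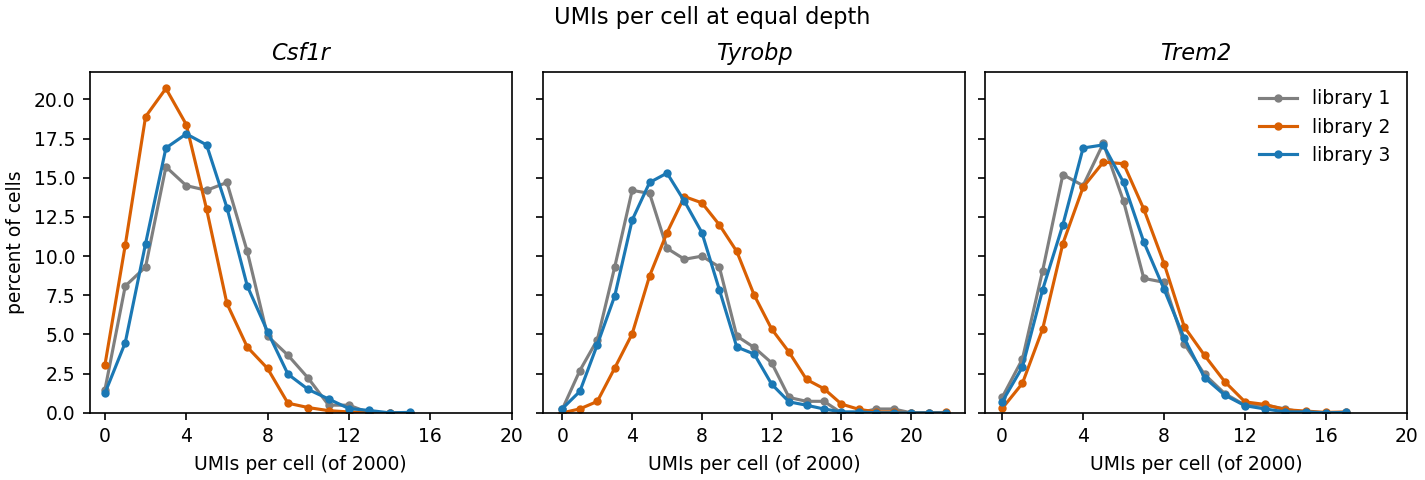
Share of cells (percent) by the number of UMIs of Csf1r, Tyrobp and Trem2 in a cell thinned to 2000 UMIs, 1 line per library. The library 2 line lies to the left for Csf1r (median 3 UMIs) and to the right for Tyrobp (median 8), each as 1 peak.

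Trem2 differed less. Its level was 2559 CPM (2450 to 2671), 2873 (2834 to 2913) and 2621 (2582 to 2660) in libraries 1, 2 and 3, with library 2 again highest and libraries 1 and 3 overlapping. The ratio was 1.12 (1.07 to 1.18) of library 2 to library 1 and 0.912 (0.894 to 0.931) of library 3 to library 2. The median cell held 5, 6 and 5 UMIs. Trem2 against Tyrobp was 80.1, 69.8 and 83 UMIs per 100, so the receptor took a smaller share relative to its adaptor in library 2. The Fc receptor gamma chain Fcer1g, another adaptor that signals through Syk, had 3055, 3926 and 3193 CPM and was also highest in library 2.

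The low members carried wider intervals. In libraries 1, 2 and 3 Hcst had 42.9 CPM (29.9 to 59.7), 54.4 (49.1 to 60) and 39.7 (35.1 to 44.9), from 35, 388 and 261 UMIs. Libraries 2 and 3 did not overlap, at a ratio of 0.731 (0.622 to 0.857) of library 3 to library 2, and library 1 overlapped both. Syk had 68.6 CPM (51.8 to 89.1), 52.4 (47.2 to 58) and 53.1 (47.7 to 59), and all 3 intervals overlapped. A difference in Syk of library 2 or 3 from library 1 was not detectable at this depth, with 56 Syk UMIs in library 1. Hcst and Syk UMIs were seen in 7.6% to 12.5% of thinned cells, and before thinning in 28.3% and 28.4% of library 2 cells, so a cell without a UMI was not a cell without the gene.

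Of the other cytokine receptor chains, Csf2ra had 142 CPM (118 to 170.5), 187 (177.5 to 198) and 167.5 (158 to 178). The ratio of library 2 to library 1 was 1.32 (1.09 to 1.61), but it was 0.99 in cells thinned to 3000 UMIs, of which library 1 had 69, so no direction held for it. Csf3r had 210 CPM (179 to 243), 176 (166 to 186) and 206 (195 to 217). Library 3 lay above library 2, at a ratio of 1.17 (1.08 to 1.27). The ratio of library 2 to library 1 was 0.839 (0.715 to 0.99), and 0.664 to 0.955 across the alternatives. A UMI of Csf3r was seen in 33.1%, 29.9% and 33.2% of thinned cells. Neutrophil markers summed to between 3.68 and 7.92 CPM in those cells, and 0, 12 and 13 cells held UMIs of at least 2 of the 8 neutrophil genes. Leaving out the 40 cells with at least 2 markers of any 1 other blood cell list moved none of the 24 ratios between libraries outside its counting interval. These were 0, 24 and 16 cells of libraries 1, 2 and 3, with 46 of the 8297 Csf3r UMIs before thinning. Their removal could thus hardly move a ratio, and it does not test the part of such cells.

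Spi1 had 574 CPM (523 to 628), 546 (529 to 563) and 615 (596 to 634) in libraries 1, 2 and 3, with UMIs in 68.4%, 66% and 70.7% of thinned cells. Libraries 2 and 3 did not overlap, at a ratio of 1.13 (1.08 to 1.18), and library 1 overlapped both.

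The 250 bases before the RefSeq start of a member were searched for GAGGAA, the letters at the centre of many PU.1 sites, on both strands. RefSeq windows on GRCm38.p6 were at hand for 5 members, Trem2, Hcst, Syk, Csf2ra and Csf3r, with 2 starts for Syk. The letters were present before 4 of these 6 starts and in 23.3% of 32851 such windows of all genes. GAGGAAGT, which contains it, was in none of the 6 and in 2.44% of all windows. The Trem2 and Hcst windows are shown, as the abundant receptor and the scarce adaptor, in lower case, 5′ to 3′ on the strand of the gene, with the match in capitals (in Trem2 it reads on the opposite strand, as TTCCTC). Trem2 lies on the plus strand, with its window at chr17:48346151-48346400, and Hcst on the minus strand, with its window at chr7:30419855-30420104.
Trem2: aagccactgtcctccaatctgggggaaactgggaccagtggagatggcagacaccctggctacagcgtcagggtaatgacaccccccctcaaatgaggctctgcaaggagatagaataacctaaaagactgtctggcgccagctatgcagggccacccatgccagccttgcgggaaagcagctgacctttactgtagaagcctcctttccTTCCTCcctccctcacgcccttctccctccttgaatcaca
Hcst: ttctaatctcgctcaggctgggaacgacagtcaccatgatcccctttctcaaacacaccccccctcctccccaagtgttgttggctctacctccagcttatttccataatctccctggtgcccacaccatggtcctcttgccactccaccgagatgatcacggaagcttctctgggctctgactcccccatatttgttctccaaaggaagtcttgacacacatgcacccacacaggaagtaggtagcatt
The Hcst window holds no GAGGAA on either strand. It does hold AGGAAGT, the last letters of GAGGAAGT, so the contrast with Trem2 rests on the letters searched. The share of all windows with AGGAAGT was not counted. These matches describe letters, and binding was not measured.

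Tyrobp and Hcst are neighbours. In GENCODE M21 on GRCm38, Tyrobp (ENSMUSG00000030579) spans chromosome 7, 30413760 to 30417585 on the plus strand, and Hcst (ENSMUSG00000064109) spans 30417712 to 30419854 on the minus strand. Their 3′ ends face each other with 126 bases between, and at equal depth Tyrobp gave 100 UMIs for every 1.26 to 1.34 of Hcst. Nothing read here says whether strand was used in the counting. The other members are protein-coding genes at separate loci: Trem2 (ENSMUSG00000023992) at chromosome 17, 48346401 to 48354147, Syk (ENSMUSG00000021457) at chromosome 13, 52583173 to 52648792, Spi1 (ENSMUSG00000002111) at chromosome 2, 91082390 to 91115756, and Csf3r (ENSMUSG00000028859) at chromosome 4, 126024550 to 126044440, all on the plus strand. Csf2ra (ENSMUSG00000059326) lies on the minus strand of chromosome 19, 61223957 to 61228429.

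Counted over the 8 genes, none was past 1.5-fold between any pair of libraries. Among all genes of at least 20 CPM, 27.5% were past 1.5-fold between libraries 2 and 1, 28.6% between 3 and 1 and 7.54% between 3 and 2. At a lower limit, a ratio of 5 to 4 in either direction, 5 of 8 members were past it between libraries 2 and 1 beside 55.7% of all genes. Of these, Tyrobp was higher and Csf1r lower in library 2, while the Hcst (0.896 to 1.85) and Syk (0.575 to 1.03) intervals include 1, the Hcst ratio was 1.05 without thinning, and Csf2ra was 0.99 at 3000 UMIs. Between libraries 3 and 1 it was 1 of 8, Syk, beside 54.2%, and between 3 and 2 it was 3 of 8, Csf1r, Tyrobp and Hcst, beside 26.8%. Library 1 gave 1343055 UMIs before thinning, against 24097543 and 19769170. Among genes of at least 1000 CPM the shares past that lower limit, in either direction, were 53.7% between libraries 2 and 1, 38.7% between 3 and 1 and 47.4% between 3 and 2. By direction, 49 of 121 such genes were higher and 16 lower in library 2 than in library 1. In library 3 against library 2, 19 of 133 were higher and 44 lower. Tyrobp thus went the way of the larger number in both, and Csf1r the way of the smaller. The median log2 ratio of all genes of at least 20 CPM was -0.08, -0.07 and -0.02 in the 3 comparisons. Among genes of at least 1000 CPM it was 0.25, 0.05 and -0.25, so abundant genes tended to be higher in library 2. Beside this, Tyrobp had 0.37, -0.02 and -0.38, Trem2 0.17, 0.03 and -0.13, and Csf1r -0.40, -0.02 and 0.38. A higher level in library 2 was thus not particular to Tyrobp or Trem2.

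**Figure D3:**
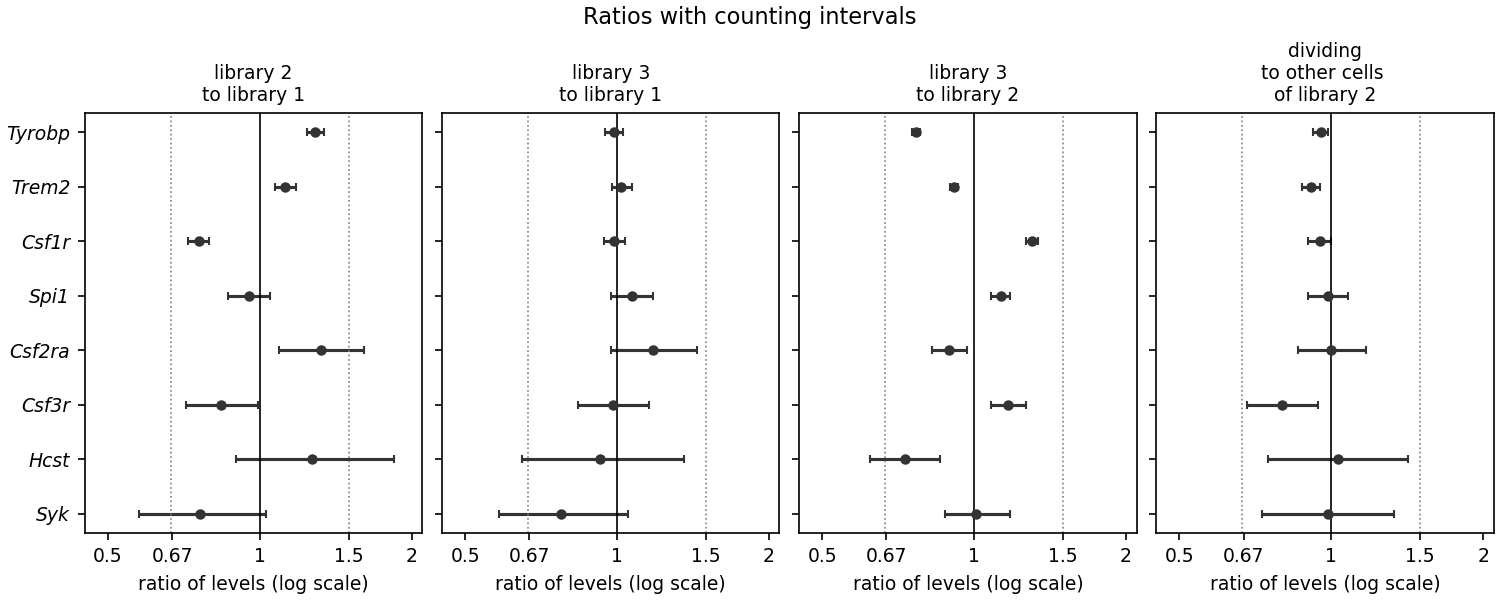
Ratio of levels (log scale) of the 8 genes between pairs of libraries and between dividing and other cells of library 2, with exact 95% counting intervals; dotted lines mark 1.5-fold. Csf1r and Tyrobp lie on opposite sides of 1 in both comparisons with library 2, and all 8 intervals of library 3 to library 1 include 1.

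At 2000 UMIs per cell the abundant members varied little beyond counting across the cells of libraries 2 and 3. The variance of UMIs per thinned cell over its mean is 1 for pure counting. Thinning draws this value toward 1, so a larger spread at full depth could be hidden. It was 1.03 to 1.09 for Tyrobp, Csf1r and Trem2 in libraries 2 and 3, where the median gene had 1.02. The 95th percentile of genes was 1.1 in library 2 and 1.18 in library 3. Csf1r, at 1.09 in library 2, lay close to that percentile there. In library 1 it was 1.49 for Tyrobp, 1.23 for Csf1r and 1.19 for Trem2, with 1.06 for the median gene and 1.34 at the 95th percentile of genes, so Tyrobp lay above most genes there. In library 2, 109 cells had no Csf1r UMI at 2000 UMIs, where counting alone would give 103. For Tyrobp and Trem2 it was 0 against 0.945 and 10 against 11.4 there. In library 3 it was 41 cells against 32.1 for Csf1r, 9 against 5.96 for Tyrobp and 23 against 17.4 for Trem2. Before thinning, 15 of 609 cells of library 1 had no Csf1r UMI, 23 no Tyrobp UMI and 19 no Trem2 UMI, and 2 had none of the 3. Those cells were shallow, with medians of 472, 519 and 529 UMIs. In the other libraries together 4 cells lacked Csf1r, 1 lacked Trem2 and none lacked Tyrobp.

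Cell-to-cell likeness was computed for the 3 abundant members. Over the 3569 cells of library 2, which share 1 library and depth, Pearson's r of thinned counts between Csf1r, Tyrobp and Trem2 was 0.02 to 0.04. Among the genes most like Csf1r were Cst3 (0.1) and Sox4 (0.08), with 0.03 and -0.01 in library 3. Those most like Tyrobp were B2m (0.07), Cst3 (0.06) and Capza2 (0.06), with 0.05, 0.08 and 0.01 in library 3. For Trem2 they included Cst3 (0.1) and C1qc (0.08), with 0.1 and 0.03. Correlations of this size in sparse counts are no finding, and as these counts varied little beyond counting error in library 2, they cannot show whether the genes vary together or apart.

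The study asked how microglia divide after nerve injury, so the 8 genes were also compared between dividing cells, with at least 5 UMIs of 43 replication and mitosis genes per 2000, and other cells, with at most 1. Library 2 held 903 dividing and 824 other cells, with 1842 between, while libraries 1 and 3 held 1 and 16 dividing cells, too few to compare. Of library 2, 297 cells sat at the limit of 5 and 431 just below it, at 4. Before thinning, dividing cells had a median of 7807 UMIs and other cells 5672. Csf1r had 1685 CPM (1626 to 1746) in dividing and 1777 (1714 to 1843) in other cells, a ratio of 0.948 (0.901 to 0.998). Tyrobp had 3991 CPM (3900 to 4084) and 4189 (4090 to 4289), a ratio of 0.953 (0.922 to 0.985). Trem2 had 2705 CPM (2630 to 2782) and 2967 (2885 to 3052), a ratio of 0.912 (0.876 to 0.949). All 3 thus made up a slightly smaller share of the UMIs in dividing cells. This is not an amount per cell, as dividing cells held more UMIs before thinning. Csf3r had 157 CPM (140 to 177) and 197 (176 to 219), a ratio of 0.8 (0.68 to 0.941), the lowest of the 8. Csf2ra (1 with 0.858 to 1.17), Spi1 (0.986 with 0.898 to 1.08), Hcst (1.03 with 0.75 to 1.42) and Syk (0.984 with 0.73 to 1.33) had intervals that include 1. None of the 8 was past 1.5-fold, beside 7.17% of all genes, and Csf3r alone was past 5 to 4, beside 23.4%.

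The low Csf1r and high Tyrobp of library 2 were also seen among its other cells. These were 23.1% of library 2 and 94.6% of library 1. Whether proliferation has a part in the library difference was not tested. With only the other cells of each library, the ratio of library 2 to library 1 was 0.758 for Csf1r and 1.31 for Tyrobp, against 0.757 and 1.29 over all cells. Across 4 classes of library 2 cells with 0 to 1, 2 to 4, 5 to 9, and 10 or more proliferation UMIs, Csf1r had 1777, 1816, 1694 and 1654 CPM. Tyrobp had 4189, 4149, 4029 and 3843 CPM, and Trem2 2967, 2914, 2731 and 2605. For Tyrobp, libraries 1 and 3 had 3195 and 3156 CPM over all thinned cells. Csf3r had 197, 176, 157 and 157 CPM.

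**Figure D4:**
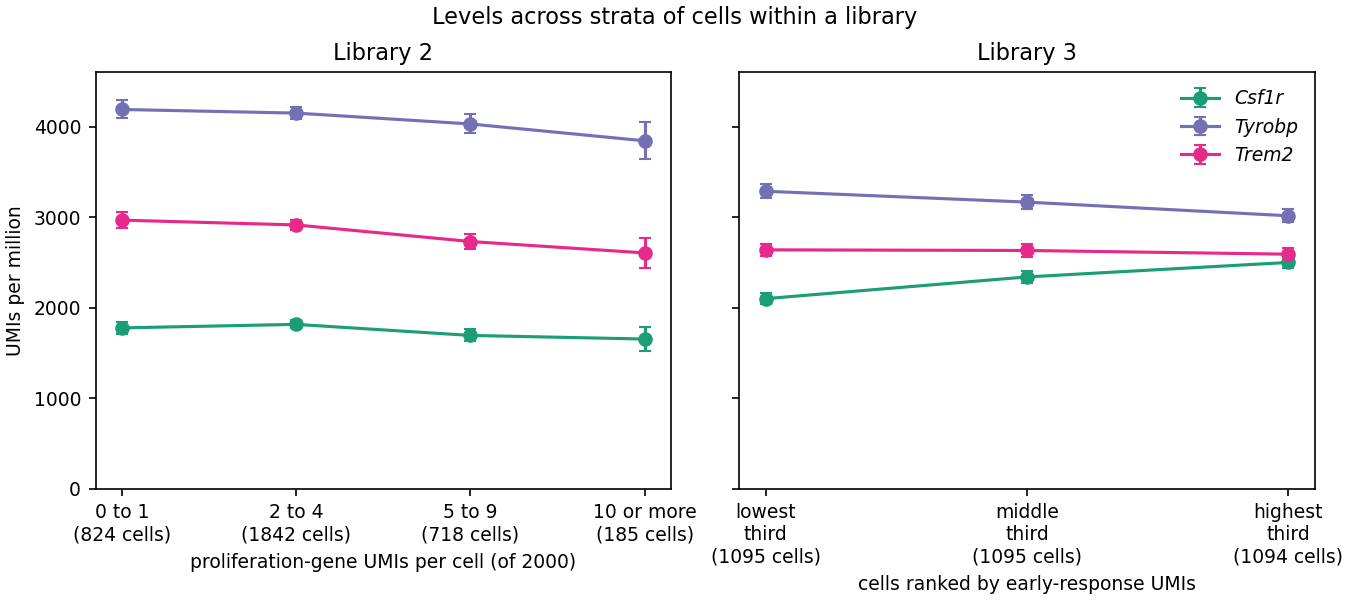
Levels (CPM) of Csf1r, Tyrobp and Trem2 in library 2 by proliferation-gene UMIs per cell, and in library 3 in 3 equal groups of cells ranked by early-response UMIs, with exact Poisson 95% intervals. In library 2 Tyrobp goes from 4189 to 3843 CPM and Trem2 from 2967 to 2605; in library 3 Csf1r goes from 2100 to 2500 CPM.

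Within the dividing cells, 367 had more replication than mitosis UMIs and 459 the reverse. Csf1r had 1628 CPM (1537 to 1723) in replication-type and 1700 (1617 to 1787) in mitosis-type cells. Tyrobp had 4106 CPM (3961 to 4256) and 3877 (3751 to 4006), and Trem2 2796 (2676 to 2919) and 2623 (2519 to 2730). Hcst and Syk were past 1.5-fold, 2 of 8 beside 11.2% of all genes, at ratios of 0.662 (0.399 to 1.08) and 0.604 (0.37 to 0.964). They rested on 27 against 51 and 28 against 58 UMIs, and neither was past it with another thinning seed, where Syk came to 1.1.

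The other genes of these pathways, 86 by a list chosen with earlier results of these data known, were counted by role. The ligands Il34, Csf2 and Csf3 had no UMI in any thinned cell, which allows up to 3 UMIs per library, and Csf1 had 15.9, 10.4 and 14.3 CPM. Apoe, a lipid carrier that Trem2 binds, had 885, 524 and 535 CPM, a ratio of 0.592 (0.547 to 0.642) of library 2 to library 1 and 0.604 (0.557 to 0.655) of library 3 to library 1. The receptors' partner Csf2rb, the shared beta chain of the GM-CSF receptor, had 53.9, 69.6 and 69.7 CPM. Of other receptors that use Tyrobp or Hcst, Siglech led with 1042, 799 and 723 CPM, followed by Clec5a with 170.3, 167 and 203 CPM, while Klrk1, the NKG2D receptor that uses Hcst in lymphocytes, had 0, 3 and 0 UMIs. Lyn led the Src-family and Tec kinases with 457, 314 and 390 CPM. Lat2 led the adaptors with 388.5, 575 and 412 CPM, and Adam10 the receptor-cutting proteases with 180.1, 143 and 121 CPM. Of the brakes, Inpp5d, a lipid phosphatase that opposes PI3 kinase, had 386, 370 and 351 CPM. Inpp5d led the brakes in libraries 1 and 2, and Ptpn6 led them in library 3 with 365 CPM.

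Of the listed genes of at least 20 CPM, 1 of 53 was past 1.5-fold higher and 13 lower in library 2 than in library 1, with a median log2 ratio of -0.23 beside -0.08 over all genes. The 14 called stand beside 27.5% of all genes, of which 737 were higher and 959 lower. The 1 higher was Fcgr4, an activating Fc receptor, with 18.4 and 47.3 CPM in libraries 1 and 2 and a ratio of 2.58 (1.54 to 4.65). The lowest ratios were those of Card9 at 0.369 (0.257 to 0.54), the kinase Tec at 0.425 (0.31 to 0.593) and the PI3 kinase subunit Pik3cg at 0.51 (0.389 to 0.678). Between library 3 and library 1, 3 of 54 were higher and 12 lower, with a median of -0.07, the same as over all genes, of which 28.6% were past it (675 higher and 1079 lower). Fcgr4 (2.47, 1.47 to 4.47), Runx1 (1.86, 1.51 to 2.32) and Shc1 (1.72, 1 to 3.21) were higher, and Tec (0.358, 0.258 to 0.504), Maf (0.424, 0.383 to 0.471) and Card9 (0.485, 0.34 to 0.704) lowest. Both comparisons share the 408 cells of library 1.

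Between library 3 and library 2, 3 of 47 listed genes were higher and 0 lower, with a median log2 ratio of 0.08 beside -0.02 over all genes. Of all genes 7.54% were past 1.5-fold, 207 higher and 244 lower. These counts over the list are near or below the background shares. The 3 were Cebpa and Runx1, transcription factors that act with PU.1 in myeloid cells, and Pik3r1, the regulatory subunit of PI3 kinase. Cebpa had 238, 135 and 325.5 CPM in libraries 1, 2 and 3, a ratio of 2.41 (2.23 to 2.6). Runx1 had 116, 118 and 217 CPM, a ratio of 1.83 (1.68 to 2), and Pik3r1 had 251, 215 and 348 CPM, a ratio of 1.62 (1.52 to 1.73). Cebpa thus shared with Csf1r its lowest value in library 2, and Spi1 itself was at 1.13. Between dividing and other cells 1 of 48 was past 1.5-fold, beside 7.17% of all genes. It was the phosphatase Ptpn11, with 38.2 against 23.7 CPM and a ratio of 1.61 (1.07 to 2.46), and the median log2 ratio was -0.13 beside 0.01 over all genes. Between replication-type and mitosis-type cells it was 2 of 46 beside 11.2% of all genes, Shc1 (0.556, 0.257 to 1.13) and Pik3ca (1.58, 0.763 to 3.35), both with intervals that include 1.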

How the data were processed

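The authors deposited raw counts of UMIs per gene and cell as 1 matrix that joins the 3 libraries, with no normalization. The submitters' processing notes name Cell Ranger 2.1.1 and mm10. The annotation, the rule that called cells, the use of strand and any down-sampling at joining were not found in the sources read. The labels name kit v3.1 and the methods v3. Doublets were excluded in the sort, per the methods, and no caller was applied here.

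Cells were thinned without replacement to 2000 UMIs (seed 1), and the 201, 22 and 38 shallower cells were left out. Counts were summed per library or class, scaled to CPM and compared as ratios. Genes with a mean of at least 20 CPM in a comparison were counted, and a gene past 1.5-fold was called. No model or test was fitted. The thinning, ratios and intervals were tested on simulated data. Python 3.11.15, numpy 2.4.6, scipy 1.17.1, pandas 2.3.3 and matplotlib 3.10.9 were used.

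All 8 members were named, and of the pathway list the most abundant gene of each role and at most 3 genes past 1.5-fold in each direction per comparison. For Csf1r, Tyrobp and Trem2 the 3 genes of highest r in library 2 were also named, except 1 gene that is not reported here. Csf2rb, Clec5a, Klrk1 and the ligands fall outside this rule and were named with their values known. The members and lists were chosen with earlier results of these data known. The 5 to 4 limit among genes of at least 1000 CPM, the early-response groups of cells and the removal of cells with other blood cell markers were added after the data were seen. Alternatives covered thinning depth and seed, mitochondrial share, scaling, filters, folds and the definition of dividing cells. No thinned cell was over the mitochondrial limit of 10%, so that alternative changed no value.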

Additional observations from a re-analysis of the deposited data

How the results depend on the processing

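No paired analysis was possible because each time point has 1 library and the labels give no replicate numbers, so no replicate could be left out either. The limit on mitochondrial share removed no thinned cell, so its ratios, among the 416 alternative member ratios, repeat the main ones. Of the 416, 52 fell on the other side of 1 from the main ratio, and for 48 of these the main interval includes 1. The other 4 were Csf2ra between libraries 2 and 1 at 3000 UMIs (0.99) and, between replication-type and mitosis-type cells, Tyrobp at 1000 UMIs (0.977) and Syk at 1000 UMIs and with seed 2 (below 1 in the main values). For Csf1r the ratio of library 2 to library 1 ranged from 0.714 to 0.798 and of library 3 to library 2 from 1.3 to 1.34. For Tyrobp these ranges were 1.16 to 1.37 and 0.76 to 0.788. The ratio of Csf2ra between libraries 2 and 1 ranged from 0.99 to 1.39, and that of Csf3r between dividing and other cells from 0.664 to 0.937.

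The count of members past the fold between libraries 2 and 1 was 0. It became 1, Csf3r at 0.664, in cells thinned to 1000 UMIs, beside 31.8% of all genes. At a limit of 5 to 4 it became 5, beside 55.7%. Between libraries 3 and 1 it became 1, beside 54.2%, and between libraries 3 and 2 it became 3, beside 26.8%, at that limit. Between dividing and other cells it became 1, again Csf3r, at 1000 UMIs, where 288 cells were dividing, beside 22.4% of all genes. It was also 1 at that limit, beside 23.4%. Between replication-type and mitosis-type cells the count was 2, and shares of all genes follow in brackets. It became 0 at 3000 UMIs (2.55%), without thinning (2.12%), with seed 2 (10.1%) and at 2-fold (1.87%). The same held with dividing set at 3 or more UMIs (3.08%) and in cells of 5000 to 8000 UMIs (26.5%). It became 1 at 1000 UMIs (41%), with median scaling (11.2%), at 50 CPM (4.14%) and with dividing set at 10 or more UMIs (45.2%). With Seurat's lists (13.9%) and without cells of other blood cell markers (11.4%) it was also 1. In this comparison Hcst turned to 1.05 at 1000 UMIs and 1.49 with dividing at 10 or more, and Syk to 2.4 at 1000 UMIs and 1.1 with seed 2. These rest on few UMIs.

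Of all genes, the share past 1.5-fold between dividing and other cells went from 7.17% to 22.4% at 1000 UMIs, 22.5% with dividing at 10 or more UMIs, 13.4% in cells of 5000 to 8000 UMIs and 1.8% for Mki67 against none. Scaling by the median ratio moved the higher share of genes past 1.5-fold from 43.5% to 54.9% between libraries 2 and 1, and from 38.5% to 48.6% between libraries 3 and 1. Under that scaling Spi1 went from 0.952 to 1 between libraries 2 and 1, and between libraries 3 and 1 Csf1r and Tyrobp went from 0.987 and 0.988 to 1.04 each and Csf3r from 0.982 to 1.03, where all 3 main intervals include 1. The other members kept their direction between libraries under it. Depth limits Hcst and Syk most, with 35 and 56 UMIs in library 1.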

Other observations

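In library 3, whose cells carried a mean of 60.2 early-response UMIs per 2000, Csf1r differed between cells by that content. In 3 equal groups of its cells ranked by early-response UMIs (medians of 37, 59 and 84 per cell), Csf1r had 2100 CPM (2040 to 2162), 2340 (2277 to 2405) and 2500 (2434 to 2567). Tyrobp had 3286 CPM (3211 to 3363), 3166 (3092 to 3241) and 3015 (2943 to 3089), the opposite order. Trem2 had 2639, 2632 and 2591 CPM and Spi1 599, 612 and 634, with neighbouring intervals that overlapped. Early-response UMIs count within the 2000 of a cell, so a higher rank leaves a smaller share for all other genes. The part of this in the lower Tyrobp and Trem2 values was not tested, and the change of other genes across the groups is not given. The groups had medians of 5020, 6133 and 6000 UMIs per cell before thinning. They were drawn after the data were seen, cells of 1 library are not replicates, and no test was made.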
